A study of Mus musculus with 12 samples.

Results

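Toll-like receptors recognize conserved molecules of microbes and of damaged cells and are among the sensors through which neutrophils are activated. The transcripts of 7 of them (Tlr1, Tlr2, Tlr4, Tlr6, Tlr7, Tlr9 and Tlr13) were described together with the co-receptor Cd14, the adaptor Myd88 and the inhibitory kinase Irak3, 10 genes of the 55335 counted, in neutrophils from breast tumors and from bone marrow. The genes were chosen by name, with earlier results of these data known, and located by their Ensembl identifiers. RNA-seq was performed on neutrophils of 3 groups of 4 mice, all FVB mice of 10 weeks housed under SOPF conditions. PyMT TANs were tumor-associated neutrophils from mammary tumors of mice that carry the PyMT oncogene, a transgene driven by a mammary tumor virus promoter that is active in mammary epithelium. PyMT-Cxcr2-/- TANs were from tumors of PyMT mice that also lack the chemokine receptor Cxcr2 in the whole animal, and WT BM neutrophils were from the bone marrow of mice with neither the transgene nor the deletion. Neutrophils were enriched for CD11b and sorted as CD45+ CD11b+ Ly6G+ F4/80- cells. Between TANs and BM neutrophils both the tissue and the tumor differ, and between PyMT-Cxcr2-/- TANs and BM neutrophils the Cxcr2 genotype differs too, so that these cannot be told apart.

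At the cell surface, Tlr2 pairs with Tlr1 or Tlr6 to bind lipoproteins, and Tlr4 binds lipopolysaccharide that Cd14 hands over to it. Tlr7, Tlr9 and Tlr13 sit in endosomes, where they sense single-stranded RNA, unmethylated CpG DNA and bacterial ribosomal RNA. All of these receptors signal through Myd88, which assembles a complex of Irak kinases that leads to NF-kappaB and to inflammatory genes such as Tnf, and Irak3 restrains this complex. In neutrophils these receptors are known to prime the oxidative burst, prolong survival and trigger cytokine release.

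Gene counts were between 25032704 and 51351569 per library (median 40897096), with 32.0% to 52.5% of the counted reads outside annotated genes. A count of 3, taken as the floor, corresponded to between 0.0584 and 0.120 CPM (the count relative to library size, with TMM factors over the 12 libraries). Cxcr2 transcripts matched the genotypes, with 1043 to 1523 CPM in the PyMT TANs, 8.82 to 10.0 CPM in the PyMT-Cxcr2-/- TANs and 1823 to 2252 CPM in WT BM neutrophils. The 12 neutrophil markers were all above the floor in each group, with sums of 9940 to 15920 CPM for PyMT TANs, 20800 to 36240 CPM for PyMT-Cxcr2-/- TANs and 105100 to 146800 CPM for BM neutrophils. Among them Csf3r, the receptor for G-CSF, ranged from 2977 to 5373 CPM over all 12 libraries. Ly6g, the gene of the sorting antigen, had 20.3 to 48.0 CPM in PyMT TANs, 106 to 180 CPM in the TANs of PyMT-Cxcr2-/- mice and 474 to 656 CPM in BM neutrophils. Macrophage markers were present in the TAN libraries despite the F4/80- gate: the 12 markers, all 12 above the floor in each group, summed to 2334 to 5562 CPM in the PyMT TANs, 2549 to 5301 CPM in the PyMT-Cxcr2-/- TANs and 263.5 to 364.9 CPM in BM neutrophils. Of these, the complement gene C1qa had 148.5 to 409.2 CPM in TANs and 0.602 to 2.04 CPM in BM neutrophils. Monocyte markers went both ways. In PyMT TANs, PyMT-Cxcr2-/- TANs and BM neutrophils, the means were 62.3, 64.7 and 4.47 CPM for Ccr2. They were 288.2, 498.6 and 18.7 CPM for Fn1, 103.2, 86.9 and 7.66 CPM for F13a1, and 7.20, 6.85 and 0.616 CPM for Ms4a4c. For Ly6c2 they were 26.1, 93.9 and 742.1 CPM. Of 7 dendritic cell markers, Itgax and H2-Ab1, which other myeloid cells also express, had 265.2 CPM or more in TANs and 160.7 CPM or less in BM neutrophils, while Flt3, Zbtb46, Xcr1, Clec9a and Cd209a were at 8.69 CPM or less in all libraries. Epithelial markers summed to 32.4 to 247.9 CPM in TANs and 0.0600 to 0.401 CPM in BM neutrophils, with Krt8, Krt19 and Krt14 at 0 in the latter. These transcripts move with the TAN against BM comparisons below, and their part in the values of Tlr1, Tlr9, Cd14 and the other genes was not tested. In bulk libraries of this kind, fewer cells that express a gene and less RNA per cell cannot be told apart.

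Promoter sequences are shown for the receptors whose transcripts were higher in both TAN groups than in BM neutrophils (Tlr1, Tlr2 and Tlr9) and for Tlr6, the neighbor of Tlr1 that did not pass the test. They were taken from RefSeq on GRCm38.p6, for 250 bases before to 20 bases after the annotated start, 5′ to 3′ on the strand of the gene. The table held 7 of the 10 genes, and not Tlr4, Tlr7 or Cd14. For genes with several entries the first is printed. Capitals mark matches, on either strand, to motifs of NF-kappaB (by name), PU.1 (GAGGAAG), AP-1 (TGANTCA), interferon-regulated genes (ISRE, by name) and C/EBP (TTGCNNAA).
Tlr1 (chr5:64933539-64933808, minus strand): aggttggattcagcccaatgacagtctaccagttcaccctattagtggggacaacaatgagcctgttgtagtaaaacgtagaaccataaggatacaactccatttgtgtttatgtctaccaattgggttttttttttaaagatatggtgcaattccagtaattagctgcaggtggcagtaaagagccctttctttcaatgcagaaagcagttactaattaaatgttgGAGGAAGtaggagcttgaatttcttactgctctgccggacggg
Tlr2 (chr3:83841589-83841858, minus strand): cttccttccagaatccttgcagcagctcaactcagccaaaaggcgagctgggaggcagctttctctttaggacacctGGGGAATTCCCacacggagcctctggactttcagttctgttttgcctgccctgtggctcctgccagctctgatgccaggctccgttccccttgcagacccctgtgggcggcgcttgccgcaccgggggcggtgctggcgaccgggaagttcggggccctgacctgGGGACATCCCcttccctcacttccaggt
Tlr9 (chr9:106222348-106222617, plus strand): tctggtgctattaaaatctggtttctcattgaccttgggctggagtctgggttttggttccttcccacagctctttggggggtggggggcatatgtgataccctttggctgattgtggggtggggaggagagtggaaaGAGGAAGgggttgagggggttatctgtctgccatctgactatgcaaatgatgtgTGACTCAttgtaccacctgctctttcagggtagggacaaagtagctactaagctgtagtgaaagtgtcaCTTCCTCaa
Tlr6 (chr5:64959147-64959416, minus strand): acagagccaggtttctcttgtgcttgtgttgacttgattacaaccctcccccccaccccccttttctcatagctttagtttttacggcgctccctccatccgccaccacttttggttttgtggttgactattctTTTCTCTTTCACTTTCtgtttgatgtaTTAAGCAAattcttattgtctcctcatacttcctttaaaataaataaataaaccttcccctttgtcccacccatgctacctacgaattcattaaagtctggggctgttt
The Tlr2 window held 3 NF-kappaB matches, of which 2 overlapped, and 4.12% of 32817 promoter windows of the same length held at least 1. The PU.1 letters were found once in the Tlr1 window and at 2 places in the Tlr9 window (11.6% of windows held them), and the AP-1 letters once in the Tlr9 window (7.23% of windows). In the Tlr6 window, 2 overlapping ISRE matches (3.19% of windows) and 1 C/EBP match (10.1% of windows) were found. That window lies inside the gene as annotated (chr5:64952031-64960097). The other entry of Tlr6 and that of Tlr1, not printed, held no match to any of these motifs. The PU.1 letters also occurred in the window of Tlr13, which did not pass the test against BM neutrophils. A match only says that these letters occur.

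Tlr1 was close to absent in BM neutrophils and clearly measured in both TAN groups. It had 45.2, 20.1, 24.1 and 35.9 CPM in the 4 PyMT TAN mice, 35.0, 42.4, 30.3 and 35.6 CPM in the PyMT-Cxcr2-/- TAN mice, and 0.720, 1.15, 1.03 and 0.700 CPM in the BM mice. All 8 TAN values were above all 4 BM values, and the TAN groups overlapped each other. The log2 fold change against BM was 5.18 ± 0.33 (SE, n = 4 each) for PyMT TANs, with an adjusted p of 3.04e-07 by edgeR's quasi-likelihood test, and 5.45 ± 0.20 for PyMT-Cxcr2-/- TANs, with an adjusted p of 3.01e-10. Tlr6 lies beside it on chromosome 5 (Tlr1 at chr5:64924679-64933563 and Tlr6 at chr5:64952031-64960097, both on the minus strand, mm10) and did not pass the test. It had 121.2, 80.5, 76.9 and 79.6 CPM in PyMT TANs, 82.5, 71.1, 86.1 and 99.3 CPM in the TANs of PyMT-Cxcr2-/- mice, and 84.3, 87.3, 85.4 and 84.8 CPM in BM neutrophils. The log2 fold changes against BM were 0.13 (95% interval -0.19 to 0.46) and 0.12 (-0.10 to 0.34). The 3 groups overlapped, and the BM mice were closer to each other than the TAN mice were. Per kilobase of exon, Tlr1 was at 0.386 ± 0.0956 of the level of Tlr6 in the PyMT TANs (SD, n = 4), 0.482 ± 0.127 in the PyMT-Cxcr2-/- TANs and 0.0117 ± 0.00275 in BM neutrophils. The transcripts of both genes are alike in part: 4.30% of the 150-base windows of Tlr1 and 3.86% of those of Tlr6 are identical in the other, so that counts from these windows are uncertain for both.

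Tlr2, the partner of both, was the most abundant receptor per kilobase in each group, though its range overlapped that of Tlr13 in BM neutrophils. The 4 PyMT TAN mice had 873.7, 633.3, 894.7 and 775.6 CPM, the PyMT-Cxcr2-/- TAN mice 1002, 958.0, 1327 and 1305 CPM, and the BM mice 285.3, 433.5, 286.1 and 299.1 CPM. None of the 3 groups overlapped, the PyMT-Cxcr2-/- TANs being highest and the BM neutrophils lowest. The log2 fold change against BM was 1.35 ± 0.17 (SE) in PyMT TANs (edgeR adjusted p = 5.04e-05) and 1.95 ± 0.17 in the TANs of PyMT-Cxcr2-/- mice (edgeR adjusted p = 2.88e-07). Tlr2 is encoded at chr3:83836272-83841767 on the minus strand.

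Tlr4 differed little between the groups while Cd14, its co-receptor, differed by more than 10-fold. Tlr4 had 223.3, 159.7, 190.0 and 181.3 CPM in the PyMT TANs, 193.2, 161.8, 206.9 and 192.1 CPM in the PyMT-Cxcr2-/- TANs, and 140.0, 162.9, 123.8 and 132.7 CPM in BM neutrophils. Replicate 2 of the BM group lay within the range of both TAN groups. The Tlr4 log2 fold change was 0.50 ± 0.13 (edgeR adjusted p = 0.00766) in PyMT TANs and 0.57 ± 0.11 (edgeR adjusted p = 0.000483) in the TANs of PyMT-Cxcr2-/- mice, both under the 1.5-fold limit. That limit was passed in PyMT-Cxcr2-/- TANs without their replicate 2 (0.66) or without BM replicate 2 (0.63), in both comparisons with a minimum count of 50 (0.59 and 0.61), and in PyMT TANs with upper-quartile scaling (0.59, adjusted p = 0.00246). With an adjustment for GC content and length the Tlr4 values were 0.16 (adjusted p = 0.432) and 0.12 (adjusted p = 0.427), or 0.31 and 0.52 relative to the median of all genes. When that adjustment kept the level of each library, a setting chosen after seeing the data, they were 0.47 (adjusted p = 0.0168) and 0.66 (adjusted p = 0.000138, past the limit).

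Cd14 had 5921, 3884, 5885 and 5752 CPM in the PyMT TANs, 6087, 5629, 6635 and 6562 CPM in the PyMT-Cxcr2-/- TANs, and 353.6, 454.8, 428.7 and 430.2 CPM in BM neutrophils. Even the lowest TAN mouse, PyMT TAN replicate 2, was far above the highest BM mouse. The log2 fold change was 3.75 ± 0.18 in PyMT TANs (edgeR adjusted p = 5.98e-08) and 4.04 ± 0.15 in the TANs of PyMT-Cxcr2-/- mice (edgeR adjusted p = 3.01e-10). Per kilobase, Cd14 stood at 91.1 ± 11.4 (SD, n = 4) times the level of Tlr4 in the PyMT TANs, 106.3 ± 5.11 times in the PyMT-Cxcr2-/- TANs and 9.64 ± 1.36 times in BM neutrophils. Cd14 is also a gene of macrophages and monocytes. Among the PyMT TANs, Cd14 was at 5921 CPM at the lowest macrophage marker sum (2334 CPM) and at 5885 CPM at the highest (5562 CPM). PyMT TAN replicate 2, at 3884 CPM, had a sum of 5248 CPM, and replicate 4, at 5752 CPM, had 3885 CPM. With the Cxcr2 deletion, replicates 3 and 4 had 6635 and 6562 CPM (sums of 3036 and 2549 CPM). Replicates 1 and 2 there had 6087 and 5629 CPM (sums of 4601 and 5301 CPM). The part of such cells in the Cd14 values was not tested.

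**Figure D1:**
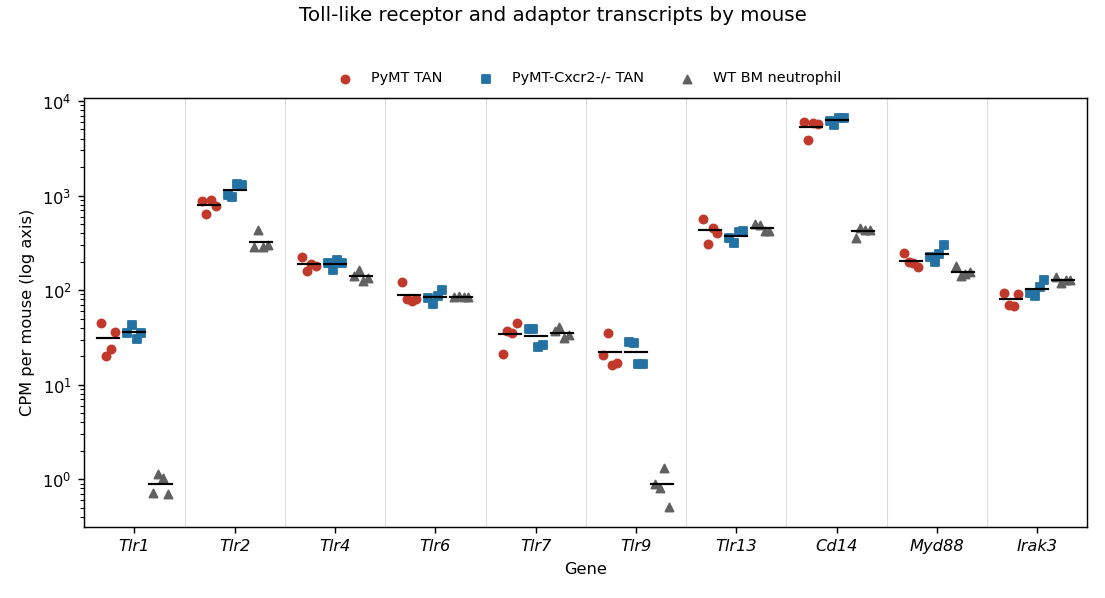
CPM of the 10 genes in each mouse, on a log axis, for PyMT TANs (circles), PyMT-Cxcr2-/- TANs (squares) and WT BM neutrophils (triangles), 4 mice per group, with a black line at the mean. The Tlr1 and Tlr9 values of BM neutrophils lie between 0.504 and 1.32 CPM, below all TAN values of 16.1 CPM or more, while the Tlr6, Tlr7 and Tlr13 groups overlap.

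The endosomal receptors behaved unlike each other. Tlr9 (chr9:106222598-106226883, plus strand) had 20.5, 35.2, 16.1 and 17.1 CPM in PyMT TANs, 28.0, 27.5, 16.7 and 16.7 CPM in the TANs of PyMT-Cxcr2-/- mice, and 0.899, 0.804, 1.32 and 0.504 CPM in BM neutrophils. Every TAN mouse was above every BM mouse, and the 2 TAN groups overlapped. The log2 fold change was 4.72 ± 0.37 in the PyMT TANs (edgeR adjusted p = 1.41e-06) and 4.79 ± 0.30 in the PyMT-Cxcr2-/- TANs (edgeR adjusted p = 2.29e-08). Tlr7 had 21.01, 36.5, 35.6 and 45.0 CPM in PyMT TANs, 39.0, 38.8, 25.3 and 26.2 CPM in the TANs of PyMT-Cxcr2-/- mice, and 37.0, 40.6, 31.1 and 33.5 CPM in BM neutrophils. The groups overlapped, with log2 fold changes of 0.03 (95% interval -0.44 to 0.50) and 0.00 (-0.34 to 0.35) against BM. Tlr13 had 564.1, 306.2, 452.5 and 398.3 CPM in the PyMT TANs, 355.2, 314.7, 412.3 and 421.5 CPM in the PyMT-Cxcr2-/- TANs, and 495.0, 482.9, 420.3 and 426.6 CPM in BM neutrophils. These groups overlapped as well, with log2 fold changes of -0.02 (-0.39 to 0.35) and -0.14 (-0.40 to 0.11). Per kilobase, Tlr9 was at 0.814 ± 0.378 (SD, n = 4) of the level of Tlr7 in PyMT TANs, 0.800 ± 0.0442 in the TANs of PyMT-Cxcr2-/- mice and 0.0298 ± 0.0140 in BM neutrophils.

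The levels of the endosomal receptors were also set beside the macrophage marker sum of each TAN mouse. Apoe alone made up 37.3% to 52.2% of this sum in the TAN libraries. In PyMT TAN replicates 1 to 4, C1qa (154.4, 355.2, 409.2 and 290.2 CPM) had the order of the sum. Mrc1 (15.6, 31.2, 251.0 and 204.2 CPM) did not, so that the order of the mice depends on the marker. Tlr7 was lowest, at 21.01 to 26.2 CPM, in the 3 TAN mice with the lowest sums (2334 to 3036 CPM), and was 35.6 to 45.0 CPM in the other 5, with sums of 3885 CPM or more. In PyMT-Cxcr2-/- TANs, Tlr9 showed the same split, with 16.7 CPM in replicates 3 and 4 against 27.5 CPM or more in replicates 1 and 2. In PyMT TANs it did not: replicate 3, with the highest sum (5562 CPM), had the lowest Tlr9 value. The highest Tlr9 value there (35.2 CPM) was in replicate 2, with a sum of 5248 CPM. Tlr13 ran the other way in PyMT-Cxcr2-/- TANs, with 412.3 and 421.5 CPM at the 2 lower sums and 355.2 and 314.7 CPM at the 2 higher ones. Among the PyMT TANs it was highest (564.1 CPM) at the lowest sum and lowest (306.2 CPM) at a sum of 5248 CPM, but it reached 452.5 CPM at the highest sum. Tlr1 was highest at the lowest sum among the PyMT TANs (replicate 1) and highest at the highest sum with the Cxcr2 deletion (replicate 2, 42.4 CPM). Tlr2 was higher at the 2 lower sums with the Cxcr2 deletion, whereas among the PyMT TANs its highest value (894.7 CPM) was at the highest sum.

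**Figure D2:**
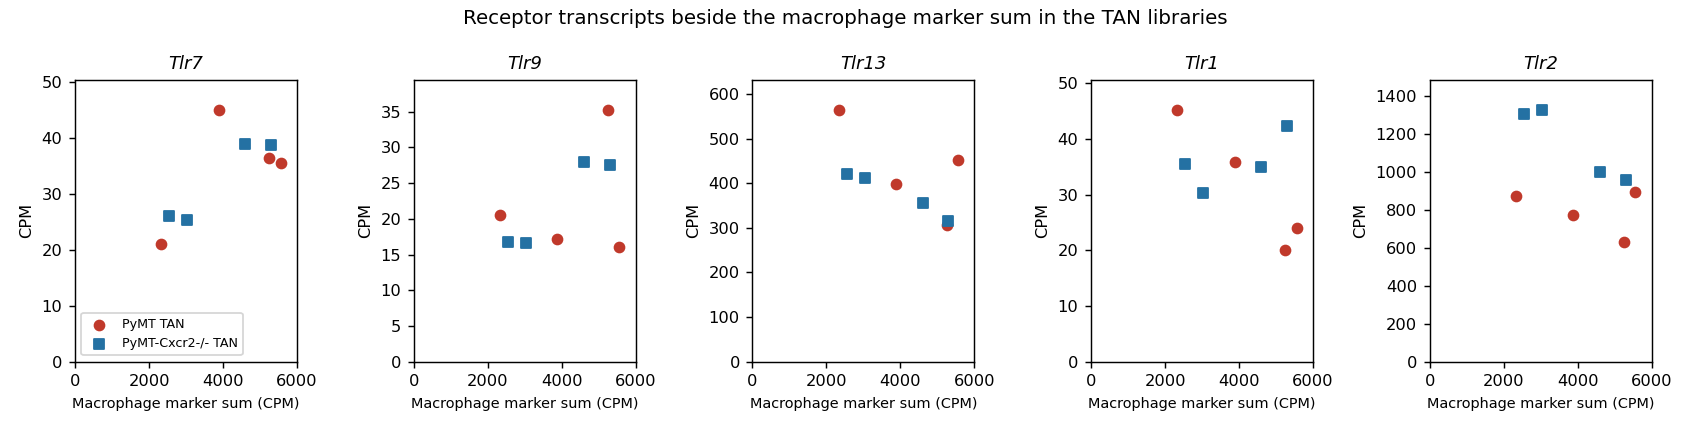
CPM of Tlr7, Tlr9, Tlr13, Tlr1 and Tlr2 (vertical axes, from 0) against the sum of 12 macrophage markers in CPM, for the 4 PyMT TAN mice (circles) and the 4 PyMT-Cxcr2-/- TAN mice (squares). The 3 mice with sums of 2334 to 3036 CPM have the lowest Tlr7 values, and the highest Tlr13 and Tlr1 values belong to the mouse at 2334 CPM.

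Myd88, the shared adaptor, was higher in the PyMT-Cxcr2-/- TANs than in BM neutrophils, and Irak3, the inhibitory kinase, was lower in the PyMT TANs. Myd88 had 245.3, 200.1, 193.8 and 175.1 CPM in PyMT TANs, 221.3, 200, 242.0 and 296.8 CPM in the TANs of PyMT-Cxcr2-/- mice, and 179.5, 141.5, 148.6 and 154.2 CPM in BM neutrophils. All PyMT-Cxcr2-/- TAN mice were above the BM mice, and 1 PyMT TAN mouse was within the BM range. The log2 fold change was 0.76 ± 0.13 in the PyMT-Cxcr2-/- TANs (edgeR adjusted p = 0.000115) and 0.45 ± 0.13 in the PyMT TANs (edgeR adjusted p = 0.0117, under the 1.5-fold limit). With the adjustment for GC content and length the value in PyMT-Cxcr2-/- TANs was 0.19 (adjusted p = 0.274), and the median of all genes moved from 0.09 to -0.40, so that Myd88 stood 0.67 above the median before and 0.58 after the adjustment. With the library level kept it was 0.72 (adjusted p = 0.000114) and passed. Irak3 had 92.8, 69.6, 68.0 and 91.0 CPM in PyMT TANs, 92.5, 86.4, 107.4 and 128.5 CPM in the TANs of PyMT-Cxcr2-/- mice, and 137.1, 119.5, 128.1 and 128.2 CPM in BM neutrophils. The PyMT TANs were all below the BM neutrophils, and the PyMT-Cxcr2-/- TANs reached into the BM range with 1 mouse. The log2 fold change was -0.61 ± 0.13 in the PyMT TANs (edgeR adjusted p = 0.00213) and -0.17 ± 0.12 in the PyMT-Cxcr2-/- TANs (edgeR adjusted p = 0.206). The former was close to the 1.5-fold limit and no longer passed it without PyMT TAN replicate 2 or 3 (-0.55 each), with upper-quartile scaling (-0.51) or with a minimum count of 50 (-0.52). With the adjustment for GC content and length, Irak3 in PyMT-Cxcr2-/- TANs was at -0.71 (adjusted p = 0.000407), or -0.32 relative to the median of all genes, and with the library level kept at -0.18 (adjusted p = 0.185). Per kilobase, Irak3 was at 0.280 ± 0.0572 (SD, n = 4) of the level of Myd88 in PyMT TANs, 0.302 ± 0.00743 in the TANs of PyMT-Cxcr2-/- mice and 0.578 ± 0.0300 in BM neutrophils. Exons of Myd88 share 290 bases with Acaa1a and those of Irak3 share 192 bases with Tmbim4, in both cases on the opposite strand, and since the strand setting of the counting is not given, reads of these stretches are uncertain.

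In total, 4 of the 10 genes were higher in PyMT TANs than in BM neutrophils (Tlr1, Tlr2, Tlr9 and Cd14) and 1 was lower (Irak3), where 53.3% of the 17153 genes tested passed, 30.1% of them higher and 23.2% lower. In PyMT-Cxcr2-/- TANs, 5 genes were higher (the same 4 and Myd88) and none was lower, where 59.5% of 17732 genes passed, 34.4% higher and 25.1% lower. In both comparisons 5 of the 10 genes did not overlap between the groups, where 58.3% and 65.9% of all genes did not. An unadjusted p under 0.05 was found for 7 of the 10 genes in PyMT TANs and for 6 with the Cxcr2 deletion, where 61.9% and 71.6% of all genes had one. In either direction, 5 of the 10 genes passed in each comparison, a share near that of all genes. The median log2 fold change of the 10 genes was 0.47 in PyMT TANs and 0.66 in PyMT-Cxcr2-/- TANs, beside 0.09 for all genes in both comparisons. The 10 genes were chosen with earlier results of these data known, so that these counts and medians are no test. The 2 comparisons share the same 4 BM libraries.

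Between the TAN groups the Cxcr2 genotype of the whole animal differs. The authors report heavier tumors with more neutrophils and fewer macrophages in PyMT-Cxcr2-/- mice. Loss in the neutrophil and changed surroundings therefore cannot be told apart. The neutrophil marker sum (9940 to 15920 CPM in PyMT TANs, 20800 to 36240 CPM in PyMT-Cxcr2-/- TANs) also moves with this comparison, and its part was not tested. None of the 10 genes passed the test with edgeR here, where 1.98% of the 18463 genes tested did. Tlr2 came nearest, with a log2 difference (PyMT-Cxcr2-/- minus PyMT) of 0.53 ± 0.17 (SE, 95% interval 0.17 to 0.89, unadjusted p = 0.00813, edgeR adjusted p = 0.136). It was the single gene of the 10 with an unadjusted p under 0.05, where 15.2% of all genes had one, and the single one whose groups did not overlap, where 12% of all genes did not. By DESeq2 the Tlr2 difference was 0.585 with an adjusted p of 0.0255, at the 1.5-fold limit, and passed. With each mouse left out in turn, the edgeR value was between 0.44 and 0.62, with adjusted p-values of 0.0924 to 0.373. Irak3 had a difference of 0.37 (95% interval -0.002 to 0.73), Myd88 of 0.23 (-0.11 to 0.58) and Cd14 of 0.21 (-0.14 to 0.57), with the groups overlapping in each case. For Tlr4 the difference was -0.00 (-0.31 to 0.31) and for Tlr6 it was -0.08 (-0.47 to 0.30), so that a change of 1.5-fold lay outside their intervals. It also lay just outside those of Myd88 and Cd14, and inside that of Irak3. With RLE scaling the differences of Myd88 and Cd14 were larger (0.29 and 0.27) and no interval is given. For these genes a change of 1.5-fold is therefore outside the interval with TMM scaling only. Tlr1 (0.19, -0.33 to 0.71), Tlr7 (-0.10, -0.62 to 0.42), Tlr9 (-0.01, -0.62 to 0.61) and Tlr13 (-0.20, -0.60 to 0.21) had intervals that still held a change of 1.5-fold, so that it was neither found nor excluded. The median of the 10 genes was 0.09, and that of all genes -0.07.

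**Figure D3:**
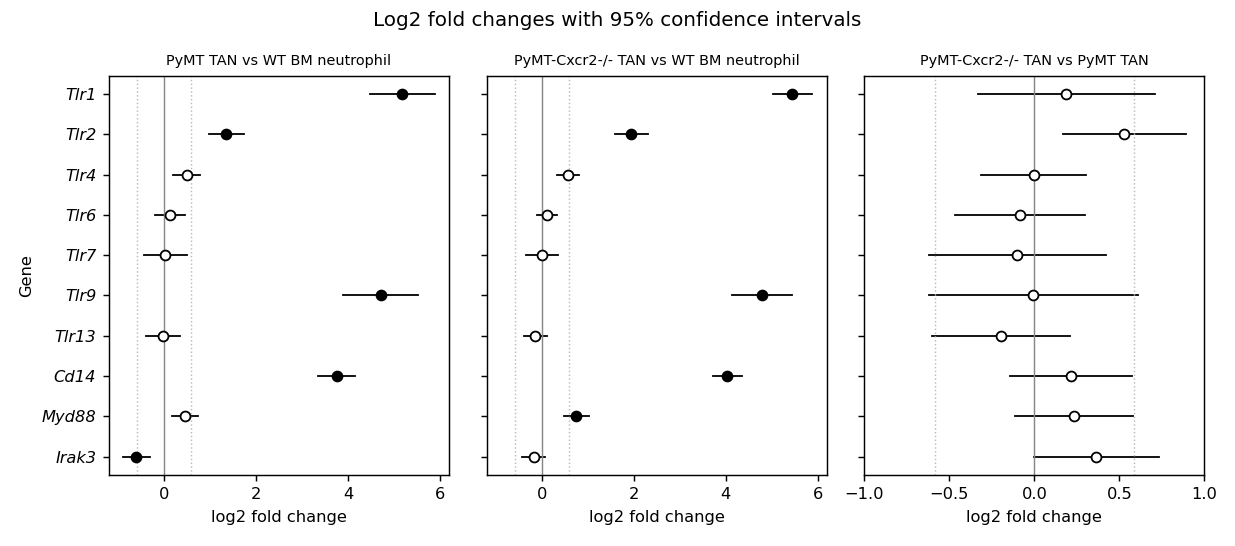
Log2 fold changes of the 10 genes with their 95% confidence intervals in the 3 comparisons of 4 against 4 mice. Filled points passed an adjusted p under 0.05 and 1.5-fold (dotted lines), and the axis of the right panel is narrower. Tlr1, Tlr9 and Cd14 lie at 3.75 or more in both comparisons with BM neutrophils, and no point is filled between the TAN groups.

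Per kilobase, Cd14 and Tlr2 led the order of the levels in each group, and Tlr9 was last. In PyMT TANs it ran from Cd14 (3095 ± 569.8 CPM per kilobase, SD) and Tlr2 (263.5 ± 39.6) over Tlr13 (99.97 ± 25.04), Myd88 (79.0 ± 11.6), Tlr4 (33.9 ± 4.76), Tlr6 (24.03 ± 5.68) and Irak3 (21.9 ± 3.64) to Tlr1 (9.36 ± 3.42), Tlr7 (8.46 ± 2.44) and Tlr9 (6.40 ± 2.55). The ranges of Tlr13 and Myd88 overlapped, as did those of Tlr4 and Tlr6, of Tlr6 and Irak3, of Tlr1 and Tlr7 and of Tlr7 and Tlr9. The PyMT-Cxcr2-/- TANs had the same order except that Myd88 (93.2 ± 16.1) and Tlr13 (87.3 ± 11.7), and Irak3 (28.2 ± 5.10) and Tlr6 (22.7 ± 3.12), changed places, with overlapping ranges within both pairs and also between Tlr4 and Irak3, Tlr1 and Tlr7, and Tlr7 and Tlr9. In BM neutrophils the order was Cd14 (240.6 ± 25.3), Tlr2 (108.2 ± 23.9), Tlr13 (106.0 ± 8.88), Myd88 (60.6 ± 6.42), Irak3 (34.9 ± 1.96), Tlr4 (25.2 ± 3.01), Tlr6 (22.9 ± 0.353), Tlr7 (8.71 ± 1.01), Tlr1 (0.269 ± 0.0668) and Tlr9 (0.254 ± 0.0967). There the pairs Tlr2 and Tlr13, Tlr4 and Tlr6, and Tlr1 and Tlr9 overlapped.

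Genes that cooperate with the 10 were taken from a list of 114 names, of which 112 were found. The list was chosen with earlier results of these data known, so that counts over it are no test. Among the other receptors, Tlr5, the flagellin sensor, was lower in TANs, with 112.7 ± 11.5 CPM (SD, n = 4) in BM neutrophils, 17.2 ± 3.88 CPM in the PyMT TANs and 29.0 ± 6.16 CPM in the PyMT-Cxcr2-/- TANs. Tlr8, a relative of Tlr7, was lower in PyMT TANs (log2 fold change -1.07 ± 0.15, edgeR adjusted p = 8.31e-05) and was under the limit in the TANs of PyMT-Cxcr2-/- mice (-0.51 ± 0.09). Tlr3, the sensor of double-stranded RNA, was at 2.91 to 10.99 CPM in TANs and at 0 to 0.0619 CPM in BM neutrophils, and Tlr12, a profilin sensor, at 4.52 to 20.7 CPM and at 0 to 0.180 CPM. These BM values are at or near the floor, so that no fold is given.

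The direct partners of the 10 genes fell into both directions. Ly96, the subunit that carries lipopolysaccharide on Tlr4, was lower in TANs (log2 fold changes of -0.84 ± 0.22 and -0.75 ± 0.23 in PyMT and PyMT-Cxcr2-/- TANs), unlike Cd14. The bridging adaptor Tirap was lower too (-1.52 ± 0.12 and -0.93 ± 0.10), as was Ticam1, the adaptor of Tlr3 (-1.40 ± 0.25 and -0.91 ± 0.19), while Ticam2 did not pass (0.33 and 0.41). Of the kinases that join Myd88, Irak4 was lower (-1.14 ± 0.14 and -0.70 ± 0.09) and Irak2 was higher (1.33 ± 0.13 and 1.08 ± 0.13). Irak1 was higher in the PyMT TANs (0.67 ± 0.15) and was at 0.51 ± 0.10 in the PyMT-Cxcr2-/- TANs. The ubiquitin ligase Traf6 (0.22 and -0.04) and the endosomal chaperone Unc93b1 (0.15 and 0.38) did not pass. In PyMT TANs the Irak2 level was 285.9 ± 39.4 CPM against 118.7 ± 12.8 CPM in BM neutrophils, and that of Irak4 50.2 ± 9.79 CPM against 115.6 ± 0.932 CPM.

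Downstream of the receptors, all 13 inflammatory target genes with more than 3 counts in every BM library were higher in both TAN groups than in BM neutrophils. Il10 and Il12b, which were at 0 in 3 and in all 4 BM mice, entered the test through the TAN libraries alone and are left out of this count, and Il6, at 0 in all BM mice, was not tested. The targets Il1a (0.540 ± 0.185 CPM in BM neutrophils, 105.7 ± 24.96 in PyMT TANs) and Il10 (at 0 in 3 BM mice and 0.308 CPM in the other, 11.7 to 47.5 CPM in TANs) were the pair named among them for the size of the difference. Over all lists, these genes included, 52 of 105 genes were higher and 20 lower in the PyMT TANs, and 54 of 107 were higher and 14 lower in the PyMT-Cxcr2-/- TANs, beside the 30.1% and 34.4% higher and 23.2% and 25.1% lower over all genes. Of those with more than 3 counts in every BM library, 48 and 49 of 101 were higher. Among negative regulators 10 of 23 were higher in both comparisons, such as Tnfaip3 (5.15 ± 0.14 and 5.31 ± 0.20), a deubiquitinase of the pathway, and Tnip3 (3.56 to 11.4 CPM in TANs and 0.120 to 0.172 CPM, close to the floor, in BM neutrophils), while 4 and 3 were lower, with Lgals3 (-2.08 ± 0.13 and -1.29 ± 0.13) and Il1rl1 (-1.07 ± 0.25 and -1.03 ± 0.22) among them. Of 9 transcription factors, 5 and 6 were higher and none was lower, with Irf8 at 3.86 ± 0.30 and 4.12 ± 0.25 and the NF-kappaB subunit Nfkb2 at 2.44 ± 0.12 and 2.97 ± 0.14. The lysosomal proteases Ctss (6.27 ± 0.28 and 5.92 ± 0.33) and Lgmn (5.32 ± 0.27 and 5.25 ± 0.25), which process endosomal receptors, were higher. Of the trafficking list, 9 of 14 genes tested were higher and 1 was lower in PyMT TANs. In PyMT-Cxcr2-/- TANs, 9 of 15 were higher and 0 lower. Over all genes, 30.1% and 34.4% were higher. Ctss and Lgmn are also abundant in macrophages.

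Other named genes of the pathway moved in both directions against BM. The kinase gene Map3k8 (2.33 ± 0.18 and 1.86 ± 0.14) and the adaptor Pik3ap1 (1.62 ± 0.15 and 1.57 ± 0.12) were higher, and the ubiquitin ligase Peli2 (-1.58 ± 0.22 and -1.10 ± 0.10) was lower. The scavenger receptor Cd36 (6.52 ± 0.79 and 6.76 ± 0.52) and Ly86 (5.39 ± 0.40 and 5.35 ± 0.37) were higher, whereas Itgam (-1.89 ± 0.15 and -1.15 ± 0.14) and Itgb2 (-1.83 ± 0.15 and -1.06 ± 0.14), which encode the CD11b integrin, were lower. The BM values of Cd36 (0.172 to 0.495 CPM) and Ly86 (0.224 to 0.779 CPM) were low, so that the size of these folds is uncertain. Cd36 also spread widely in PyMT TANs, from 5.88 to 67.0 CPM. Among receptors of the interleukin-1 family, which also use Myd88, Il1rap (2.82 ± 0.17 and 2.40 ± 0.11) and the decoy Il1r2 (2.24 ± 0.18 and 2.26 ± 0.18) were higher and Il18r1 (-1.96 ± 0.20 and -1.28 ± 0.12) was lower.

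Between the TAN groups, 7 of the 109 listed genes tested passed the test, 6 lower and 1 higher in PyMT-Cxcr2-/- TANs, where 0.596% of all genes were lower and 1.38% higher. The list was chosen with earlier results of these data known, and the authors report Tnf, Ccl3 and Icam1 as lower in these TANs. The count beside the share of all genes is therefore no test of the pathway. The lower genes were the cytokine Tnf (log2 difference -1.25 ± 0.24, edgeR adjusted p = 0.0263), Il1a (-1.39 ± 0.23, 0.0154), the chemokine Ccl3 (-0.97 ± 0.20, 0.0299), the adhesion molecule Icam1 (-0.97 ± 0.19, 0.0251), the kinase Ikbke (-1.19 ± 0.22, 0.0239) and the interferon-induced Usp18 (-1.08 ± 0.22, 0.0296). Tnf had 123.4 to 231.1 CPM in PyMT TANs and 43.0 to 84.2 CPM in the TANs of PyMT-Cxcr2-/- mice, and 46.5 ± 5.25 CPM in BM neutrophils. The higher gene was Lgals3 (0.72 ± 0.13, edgeR adjusted p = 0.0201), with 176.2 to 196.1 CPM in the PyMT TANs and 264.4 to 344.6 CPM in the PyMT-Cxcr2-/- TANs. Of the 16 target genes, 4 were lower. The neutrophil marker sum, which did not overlap between the TAN groups, moves with this comparison, and its part was not tested. All 7 calls were lost without PyMT TAN replicate 2, and leaving out other mice lost calls too. In the 8 fits without 1 mouse, Usp18 passed in 1, Ccl3 and Icam1 in 2 each, and Tnf and Ikbke in 4 each. Lgals3 passed in 5 and Il1a in 6. All 7 calls also failed under the replicate block (adjusted p of 0.106 to 0.2). The adjustment for GC content and length lost all 7 as well (adjusted p of 0.0502 to 0.257). The differences kept their direction, at -1.50 to -0.99 for Tnf and -1.59 to -1.23 for Il1a over all alternatives. With the library level kept in that adjustment the 6 lower genes passed (adjusted p of 0.0322 to 0.0448), and Lgals3 did not (0.087).

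The gene whose pattern over the 12 libraries was nearest to each of the 10, by the root mean square difference of centered log2 CPM among 11090 genes, was Dusp16 for Tlr1 (0.317), Ppp1r3b for Tlr2 (0.169), Wac for Tlr4 (0.0864), 1810013L24Rik for Tlr6 (0.0864), Metap2 for Tlr7 (0.118), Slc12a7 for Tlr9 (0.276), Sp4 for Tlr13 (0.106), Rabgef1 for Cd14 (0.223), Plekho2 for Myd88 (0.115) and Chm for Irak3 (0.0877). The median difference over all these genes was 2.55 for Tlr1 and 2.31 for Tlr9, and between 0.563 and 1.91 for the other 8 genes.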

How the data were processed

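RNA-seq libraries of 12 mice were used. The authors depleted ribosomal RNA, prepared strand-aware libraries, read both fragment ends, removed low-quality reads, used STAR for the alignment to mm10 and HTSeq for the counting. What the authors deposited are raw counts, 1 file per library. The annotation release and the strand setting are not given in the sources used here, and 55154 of 55335 genes were matched to GENCODE M21.

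Each comparison was fitted on its 2 groups with edgeR 4.0.16 in R 4.3.3 (TMM, filterByExpr, robust quasi-likelihood test). Genes passed with 1.5-fold and a p under 0.05 after Benjamini-Hochberg adjustment. Standard errors were derived from the F statistic. CPM used TMM factors over the 12 libraries, and levels between genes used exon length. DESeq2 1.42.0, other scalings and filters, all libraries in one fit, no robust estimation, a replicate block, a GC and length adjustment, adjusted p alone and each mouse left out were tried. The fits were tested on simulated data with 200 changed genes. Replicates are mice, and replicate pairs differed by more than sampling noise.

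The genes described and the lists were chosen with earlier results of these data known. The named genes are the 10, 12 direct partners, listed genes past the thresholds between the TAN groups, and for each list up to 2 genes in each direction, by size of change in PyMT TANs, that passed in both comparisons with BM neutrophils, at an average log2 CPM of 1 or more.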

Additional observations from a re-analysis of the deposited data

Results flagged for a closer look

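In 10 of 144 groups of 4 mice examined (10 genes and the named genes of the pathway), 1 mouse stood apart from the other 3 by Dixon's criterion, which chance gives in about 1 of 20 groups. Among the 10 genes, Tlr2 was high in WT BM replicate 2 (433.5 CPM, the others 285.3 to 299.1), Tlr6 was high in PyMT TAN replicate 1 (121.2 CPM, the others 76.9 to 80.5), and Cd14 was low in PyMT TAN replicate 2 (3884 CPM, the others 5752 to 5921). Tnf was high in PyMT TAN replicate 3 (231.1 CPM, the others 123.4 to 140.2). In PyMT-Cxcr2-/- TAN replicate 4, Unc93b1 was low (230.7 CPM) and Peli2 (36.1 CPM) and Il18r1 (24.6 CPM) were high. In WT BM neutrophils, Icam1 was low in replicate 3 (4.07 CPM), Tlr3 was at 0 CPM in replicate 3, and Il10 was at 0.308 CPM in replicate 4 and at 0 in the others.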

How the results depend on the processing

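The calls of Tlr1, Tlr2, Tlr9 and Cd14 against BM held under each alternative tried. Between the TAN groups the number of genes depended on the setting. Against 255 higher and 110 lower, there were 471 higher with no filter on low counts, 579 and 307 with all libraries in one fit, 684 and 300 by DESeq2, 39 and 37 with GC and length adjusted, and 156 higher when the library level was kept in that adjustment, a setting chosen after seeing the data. The listed genes that passed higher numbered 5 with no filter, with one fit and by DESeq2, 2 at a minimum count of 50, and 0 with GC and length adjusted in either way. Those lower numbered 0 with GC and length adjusted and 6 with the library level kept. Of the 10 genes, 1 passed by DESeq2 (Tlr2).

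The replicate number does not mark the same animal, and the deviations of same-numbered mice had a mean correlation of -0.0416 over 12 pairs. Between the TAN groups, the fit with the replicate block called 4 genes higher and 9 lower (12 and 19 with GC and length adjusted too), and 0 listed genes passed in either direction.

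Without 1 mouse, 10 to 427 genes were higher and 13 to 100 lower between the TAN groups, both lowest without PyMT TAN replicate 2, and 0 to 4 listed genes were higher and 0 to 5 lower. In PyMT TANs against BM, 0 to 1 of the 10 genes were lower over these fits, and 0 with upper-quartile scaling or a minimum count of 50. In PyMT-Cxcr2-/- TANs against BM, with GC and length adjusted (without and with the block), 2 of the 10 genes were lower (Tlr13 and Irak3), as were 7305 and 7283 of all genes and 36 listed genes.

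Differences near 0 turned sign. Between the TAN groups Tlr4 was 0.0492 with RLE scaling and with DESeq2, 0.0522 with no filter, 0.0134 with upper-quartile scaling, 0.0006 with the block, 0.015 with block and adjustment and 0.0726 with the level kept, and Tlr9 was 0.0355 with RLE and DESeq2, 0.0004 with upper-quartile scaling, 0.0514 with no filter and 0.0236 with the block. In PyMT TANs against BM, Tlr7 was -0.0466 with RLE and DESeq2, -0.0603 with no filter, -0.0414 in one fit, -0.0172 with the block, and -0.28 and -0.31 with GC and length adjusted, Tlr6 -0.22 and -0.26 there, and Tlr13 0.0717 with upper-quartile scaling and 0.0697 at a minimum count of 50. In PyMT-Cxcr2-/- TANs against BM, Tlr6 was -0.0114 in one fit and -0.40 and -0.42 with GC and length adjusted, and Tlr7 -0.14 in one fit, -0.0247 with the block and -0.40 and -0.42 with the adjustment, which moved the median of all genes to -0.40 there. The cause was not tested. Leaving out 1 mouse, Tlr4 between the TAN groups ranged from -0.0712 to 0.14, Tlr6 from -0.15 to 0.14, Tlr7 from -0.23 to 0.0577, Tlr9 from -0.13 to 0.31 and Tlr13 from -0.33 to 0.0077. Against BM, the ranges were -0.0579 to 0.18 for Tlr6, -0.15 to 0.20 for Tlr7 and -0.19 to 0.11 for Tlr13 in PyMT TANs, and -0.0749 to 0.13 for Tlr7 in PyMT-Cxcr2-/- TANs.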
